A study of Mus musculus with 10 samples.

Results

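The genes described here encode 2 DYRK kinases (Dyrk1a and Dyrk1b), the 3 regulators of calcineurin (Rcan1, Rcan2 and Rcan3), 3 subunits of the phosphatase calcineurin (Ppp3ca, Ppp3cb and Ppp3r1), the transcription factor Nfatc3 and the kinase Gsk3b. The list was set by pathway and uses no measured value as a criterion, though earlier results of these data were known when it was drawn up, and all 10 were measured among the 19939 genes that had a probe set annotated to 1 gene. Where a gene had several such probe sets, the one with the highest mean was used. The expression was measured in the hippocampus, right and left together, of 5 Dp3Yah and 5 control male mice at 16 weeks of age, with 1 array per mouse. Dp3Yah mice carry 3 copies, against 2 in the control littermates, of the stretch of chromosome 16 between Hspa13 and Gabpa, both included, whose genes have their human counterparts on chromosome 21 (Hsa21). The sample labels give C57BL/6N as the background of both groups, whereas the study's methods describe backcrossing of its lines to C57BL/6J, and the substrain is not settled here. The extra copy is inherited and present in every cell, and Dp3Yah is a single engineered line, so that an effect of the line itself cannot be told apart from that of the copy number. The study used several mouse lines to ask which parts of the Hsa21-homologous region alter expression. Dyrk1a and Rcan1 belong to that region but lie outside the part duplicated here, so the Dp3Yah mice and their controls both had 2 copies of all 10 genes.

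DYRK1A is a kinase that phosphorylates serine and threonine residues, and its gene is among the most studied of Hsa21 for cognition in Down syndrome. Calcineurin is a phosphatase switched on by calcium and calmodulin, abundant in hippocampal neurons, that dephosphorylates NFAT transcription factors and so lets them enter the nucleus. RCAN proteins bind calcineurin and restrain it, while DYRK1A and GSK3B phosphorylate NFAT factors, which favours their export from the nucleus.

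Rcan1 is both a regulator of calcineurin and, in the literature, a transcriptional target of it. The gene is read from alternative starts, an outer one and an inner one, and the inner one is known to respond to NFAT. In the RefSeq annotation of GRCm38.p6 both starts lie on the minus strand of chromosome 16, and the table of promoters held a 300-base window for each, from 250 bases before to 50 bases after the start, at chr16:92466120-92466419 and chr16:92400029-92400328. They are printed 5′ to 3′ because they differ in the core motif that NFAT factors bind, GGAAA, searched on both strands, so also as TTTCC, with every match in capitals.
Rcan1 outer start: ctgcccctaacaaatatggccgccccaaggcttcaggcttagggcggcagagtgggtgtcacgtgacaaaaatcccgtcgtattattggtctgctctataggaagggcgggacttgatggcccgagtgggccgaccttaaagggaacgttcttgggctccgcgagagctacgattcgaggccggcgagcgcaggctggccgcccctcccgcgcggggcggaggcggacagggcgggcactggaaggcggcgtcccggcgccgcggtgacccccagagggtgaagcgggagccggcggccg
Rcan1 inner start: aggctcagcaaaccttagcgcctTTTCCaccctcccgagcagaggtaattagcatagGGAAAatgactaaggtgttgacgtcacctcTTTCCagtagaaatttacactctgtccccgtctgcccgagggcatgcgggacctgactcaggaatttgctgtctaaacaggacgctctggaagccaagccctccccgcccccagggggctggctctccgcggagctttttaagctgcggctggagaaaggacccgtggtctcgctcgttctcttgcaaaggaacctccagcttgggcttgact
The outer window held no GGAAA and the inner window held 3, a number that 9.42% of the 32851 promoter windows reached. The inner window also held the cyclic AMP response element TGACGTCA, found in 1.79% of the windows, and the AP-1 site TGACTCA, found in 5.20%, both searched on both strands, and neither of which was in the outer window. Over the 9 of the 10 genes with an entry, 10 of 16 windows (62.5%) held GGAAA, against 61.3% of all windows. The Ppp3cb window held 4 matches, a number reached by 2.65% of all windows. A match is a run of letters, not a bound site. The array had 1 probe set for Rcan1, annotated to transcripts of both starts, so the values below do not separate the 2 forms.

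Of the 10 genes, 3 lie on chromosome 16 of GRCm38.p6. The duplicated interval spans 9.11 Mb, from position 75755190 to 84863783. Rcan1 (92391951 to 92466169) lies 7.53 Mb beyond its distal end and Dyrk1a (94569947 to 94695519) 9.71 Mb beyond it. Gsk3b (38089001 to 38246084) lies 37.5 Mb before its proximal end. The other 7 are on other chromosomes, Ppp3ca on 3, Rcan3 on 4, Dyrk1b on 7, Nfatc3 on 8, Ppp3r1 on 11, Ppp3cb on 14 and Rcan2 on 17.

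The arrays were all distinct, and any 2 of them differed across genes with an SD of 0.115 to 0.208 on the log2 scale. All 6 neuron markers and all 8 pyramidal cell markers lay above the median level of all genes, as did 7 of the 8 dentate granule cell markers. By this rough guide, none of the defining lists of the hippocampus was absent. All 10 genes described here also lay above that median. The level of one probe set cannot be set exactly against that of another, because probes differ in brightness. The median is thus only a rough guide to whether a gene was detected, and genes were otherwise compared only by their differences between groups. RNA of the whole hippocampus was measured, and fewer cells of a type and less RNA per cell cannot be told apart.

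None of the 10 genes passed the test for a difference between Dp3Yah and control hippocampi. The limma test called 3 of the 19939 genes at an adjusted p under 0.05 (0.015%), all of them in the duplicated interval, and 0 of the 10. At an unadjusted p under 0.05 it passed 1013 genes (5.08%) and again 0 of the 10, and the rank method of the study (FCROS) put 915 genes (4.59%) in its tails and 0 of the 10. The FCROS score was scaled to the mean and SD of all genes, so the share in its tails is largely set by the method. It is not a count of detected genes. The 5 values of one group lay wholly outside the range of the other for 182 genes (0.913%) and for 0 of the 10. Of the log2 changes, 4 were above 0 (40%, against 46.8% of all genes) and 6 below. Their median was -0.0033, against -0.0047 over all genes. These counts were near or under the background, and with 10 genes a background of 5.08% amounts to less than 1 gene.

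The size of change that the data allow was narrow. The 95% intervals of all 10 genes lay wholly between a fold of 1/1.5 and 1.5. Their lowest bound was a fold of 0.852, for Rcan2, and their highest 1.15, for Ppp3cb. The 3 called genes were Mrpl39, a mitochondrial ribosomal protein, with a log2 change of 0.48 (SE 0.046, limma adjusted p = 0.00336), Hspa13, a member of the Hsp70 chaperone family, with 0.60 (SE 0.069, limma adjusted p = 0.0122), and Ncam2, a neural cell adhesion molecule, with 0.58 (SE 0.070, limma adjusted p = 0.0122). They are the genes that passed the test. Log2 changes of the uncalled genes of the interval above the median level ran from 0.28 for Atp5j to 0.54 for Jam2.

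**Figure D1:**
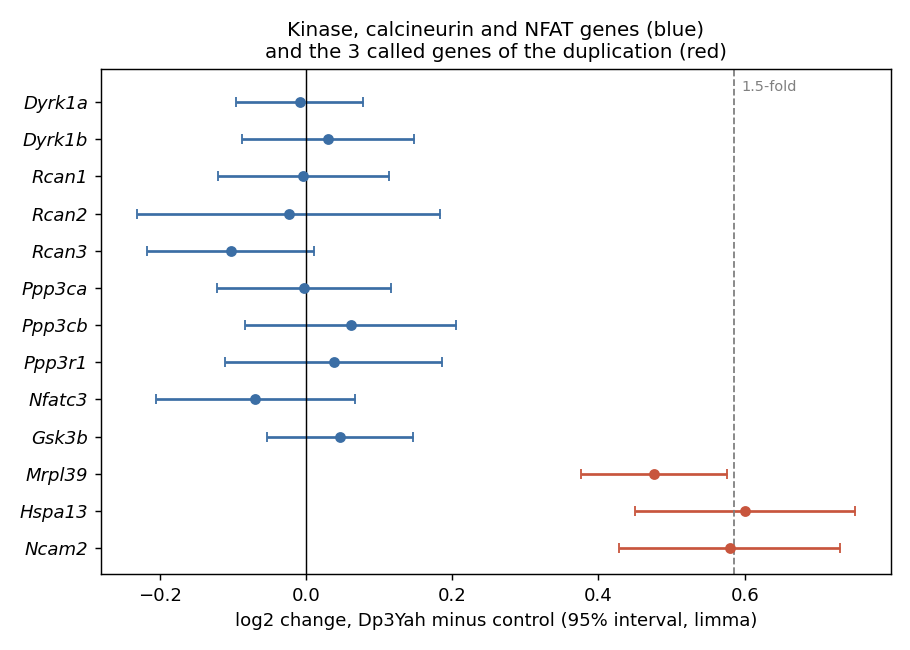
The plot gives the log2 change (Dp3Yah minus control, x axis) of the 10 genes in blue and of the 3 called genes of the duplicated interval in red, each with its 95% interval from limma over 5 mice per group. All blue intervals include 0 and none reaches the dashed line at a 1.5-fold increase (log2 0.58), whereas the red points lie between 0.48 and 0.60.

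By its brighter probe set, Dyrk1a was among the steadiest genes between mice. Its log2 values in Dp3Yah replicates 1 to 5 were 10.58, 10.45, 10.55, 10.59 and 10.54, and in control replicates 1 to 5 they were 10.60, 10.57, 10.53, 10.52 and 10.54. The groups overlapped throughout, with Dp3Yah replicate 2 the lowest mouse. The mean was 10.54 ± 0.057 (SD, n = 5) in Dp3Yah and 10.55 ± 0.036 (SD, n = 5) in controls, a log2 change of -0.0089 (SE 0.040, limma adjusted p = 0.991), or a fold of 0.994 with a 95% interval of 0.936 to 1.06. Of the 9969 genes above the median level, 3.99% varied as little as this brighter probe set or less within the groups. A dimmer probe set of Dyrk1a read 8.27 in Dp3Yah and 8.37 in controls on average, a log2 change of -0.10 (SE 0.052, limma adjusted p = 0.911), and its values did not follow those of the brighter one over the 10 arrays (r = 0.0227, a comparison of 2 probe sets on the same arrays). The 2 probe sets of the gene therefore disagreed in how mice ranked, while the 95% interval of the dimmer one, -0.22 to 0.012, did not reach a 1.5-fold change either.

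Dyrk1b encodes the closest relative of DYRK1A. Its values were 8.74, 8.47, 8.54, 8.60 and 8.64 in Dp3Yah mice and 8.53, 8.47, 8.59, 8.62 and 8.62 in controls. Dp3Yah replicates 1 and 5 were the highest mice, and the groups overlapped. The log2 change was 0.03 (SE 0.054, limma adjusted p = 0.970).

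The regulators of calcineurin did not pass the test either. Rcan1 read 8.30, 8.14, 8.38, 8.39 and 8.21 in Dp3Yah mice and 8.31, 8.32, 8.20, 8.34 and 8.29 in controls. The Dp3Yah mice held both the lowest and the highest values, and the control range lay inside theirs. The SD was 0.110 in Dp3Yah and 0.052 in controls (n = 5 each), and the log2 change was -0.0037 (SE 0.054, limma adjusted p = 0.997), a fold of 0.997 with an interval of 0.920 to 1.08. Without Dp3Yah replicate 2, the lowest mouse, the change was 0.03 (limma adjusted p = 0.934).

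Rcan2, the member of the family known mainly from brain and muscle, varied most of the 10 genes between mice. It read 10.23, 9.90, 10.38, 10.27 and 10.25 in Dp3Yah mice and 10.18, 10.46, 9.97, 10.27 and 10.28 in controls. Each group held 1 low mouse, Dp3Yah replicate 2 and control replicate 3. Its SD was 0.179 in both groups, and 90.8% of the genes above the median level varied as little or less. The log2 change was -0.02 (SE 0.096, limma adjusted p = 0.988). Without Dp3Yah replicate 2 it was 0.05 and without control replicate 3 it was -0.09, neither of which passed the test (limma adjusted p = 0.936 and 0.956).

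Rcan3 had the smallest unadjusted p of the 10 genes. Its values were 7.12, 7.07, 7.17, 7.14 and 7.16 in Dp3Yah mice and 7.35, 7.27, 7.05, 7.26 and 7.25 in controls. All Dp3Yah mice lay below 4 of the 5 controls, but control replicate 3 was lower than any of them. The log2 change was -0.10 (SE 0.053, unadjusted p = 0.0735, limma adjusted p = 0.922), and its rank score f of 0.0283 fell just short of the lower FCROS tail, which begins at 0.025. Without control replicate 3 the change was -0.15 with an unadjusted p of 0.0045 (limma adjusted p = 0.956). That was the only setting of 18 in which any of the 10 genes had an unadjusted p under 0.05.

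Calcineurin is a pair of a catalytic and a regulatory subunit. Ppp3ca, the gene of the catalytic subunit that prevails in brain, read 12.33, 12.46, 12.35, 12.38 and 12.25 in Dp3Yah mice and 12.51, 12.34, 12.39, 12.24 and 12.32 in controls. The 2 groups covered almost the same range, and the log2 change was -0.0028 (SE 0.055, limma adjusted p = 0.997). Ppp3cb, a second catalytic subunit, read 10.59, 10.87, 10.78, 10.66 and 10.60 in Dp3Yah mice and 10.76, 10.65, 10.71, 10.47 and 10.61 in controls. Dp3Yah replicate 2 was the highest and control replicate 4 the lowest, and the log2 change was 0.06 (SE 0.067, limma adjusted p = 0.951). The regulatory subunit Ppp3r1, which binds calcium, read 10.86, 11.07, 11.08, 10.87 and 10.78 in Dp3Yah mice and 11.01, 10.91, 10.98, 10.77 and 10.80 in controls. Here Dp3Yah replicates 2 and 3 were the highest mice, and the log2 change was 0.04 (SE 0.068, limma adjusted p = 0.970).

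Nfatc3, an NFAT factor expressed in neurons, read 6.96, 6.93, 6.76, 7.04 and 6.88 in Dp3Yah mice and 7.09, 6.98, 6.82, 6.95 and 7.08 in controls. The groups overlapped, with the lowest mouse in Dp3Yah and the highest in controls. The log2 change was -0.07 (SE 0.063, limma adjusted p = 0.943), a fold of 0.953 with an interval of 0.867 to 1.05. Gsk3b, the kinase that phosphorylates NFAT and also β-catenin and tau, read 10.07, 10.06, 10.12, 10.14 and 10.01 in Dp3Yah mice and 10.09, 10.10, 10.08, 9.95 and 9.95 in controls. Control replicates 4 and 5 were the lowest mice and Dp3Yah replicate 4 the highest. Its log2 change was 0.05 (SE 0.046, limma adjusted p = 0.950).

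**Figure D2:**
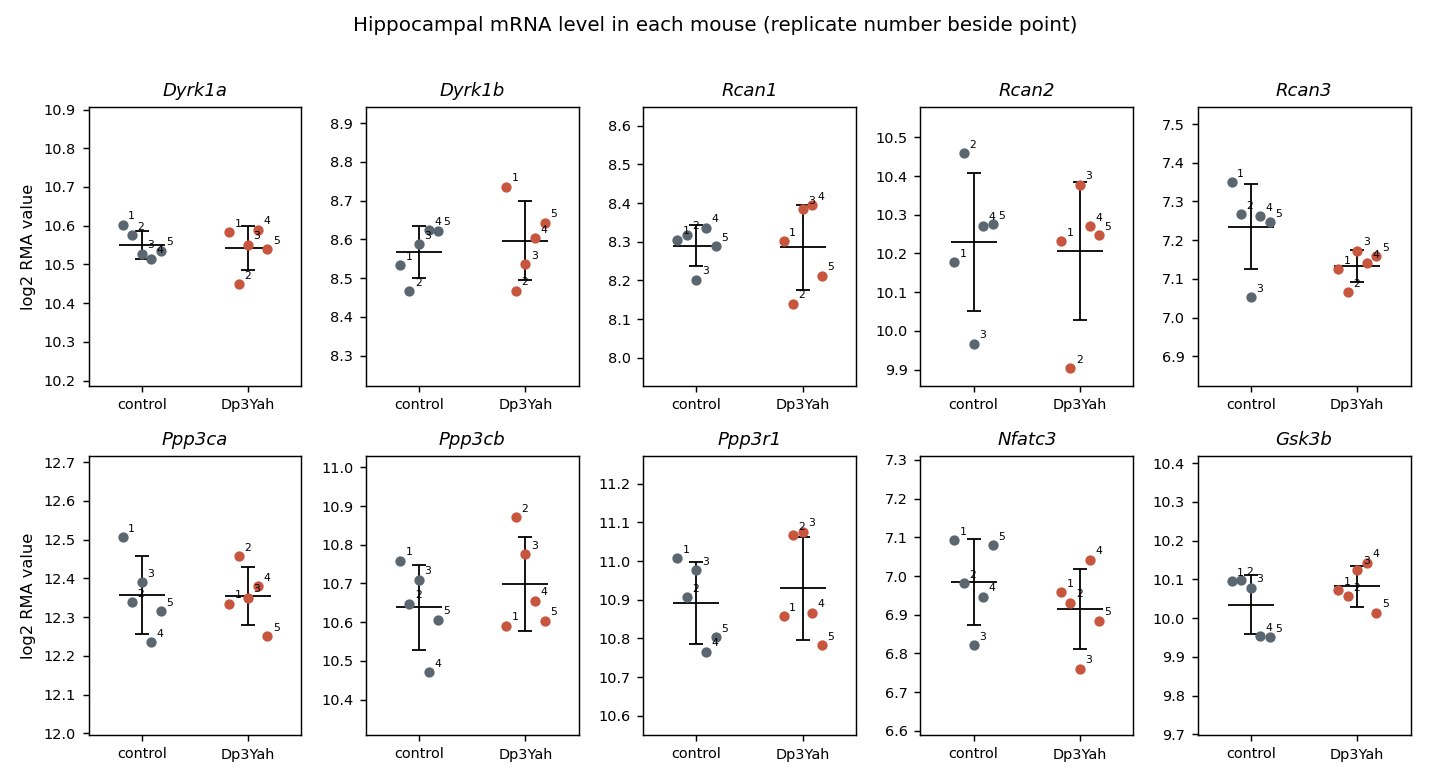
Each panel gives the log2 RMA value (y axis, the same span in every panel) of 1 gene in the 5 control and the 5 Dp3Yah mice, with the replicate number beside each point and bars for the mean ± SD. Control and Dp3Yah points overlap in all 10 panels, the spread is widest for Rcan2 (SD 0.179 in both groups), and Dp3Yah replicate 2 is the lowest mouse of its group for Dyrk1a, Dyrk1b, Rcan1, Rcan2 and Rcan3 and the highest for Ppp3ca and Ppp3cb.

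The neighbours of Rcan1 and Dyrk1a on chromosome 16, also in 2 copies in both groups, were counted in the same way. Of the 6 listed for Rcan1, only 2 lay above the median level of all genes, and 0 were called. Their log2 changes were above 0 for 3 and below 0 for 3, with a median of -0.01. They were -0.13 for Mrps6, a mitochondrial ribosomal protein, -0.18 for Slc5a3, a myo-inositol transporter, 0.08 for Runx1, a transcription factor of blood cells, 0.18 for Clic6, 0.0056 for Kcne2 and -0.03 for Kcne1, the last 2 being subunits of potassium channels. Slc5a3 was past the lower FCROS tail (f = 0.0084) but not past limma (adjusted p = 0.939). Its values, 7.74, 7.33, 7.28, 7.48 and 7.43 in Dp3Yah mice and 7.99, 7.04, 7.70, 7.75 and 7.68 in controls, had 4 controls above all but the highest Dp3Yah mouse and control replicate 2 below all mice.

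Clic6 and Kcne2 are also markers of the choroid plexus, a tissue that borders the hippocampus. The SD of Clic6 reached 1.09 in controls, and the mean of the 6 other choroid plexus markers ran from 6.53 to 8.70 in Dp3Yah mice and from 6.43 to 8.80 in controls. With group means removed, Clic6 followed that mean over the 10 mice (r = 0.969, exact permutation p = 0.000486, rho = 0.842, exact permutation p = 0.00382, and r = 0.956 without the 2 mice farthest out), as did Kcne2 (r = 0.946, exact permutation p = 0.00104, rho = 0.830, exact permutation p = 0.00764, and r = 0.949 without those 2). Adjusted over these 2 relations, which were looked at after the values were seen, the p-values were 0.000972 and 0.00104 for r and 0.00764 for both rho.

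The 6 neighbours of Dyrk1a, 5 of them above the median level, had 3 log2 changes above 0 and 3 below, a median of -0.01 and 0 calls. Kcnj15 and Kcnj6, which encode potassium channels, both read -0.09, Ttc3, a ubiquitin ligase, -0.03, Hlcs, the enzyme that attaches biotin to carboxylases, 0.03, Vps26c, an endosomal sorting protein, 0.0039, and Pigp, of GPI anchor synthesis, 0.06. The value of Pigp is that of its brighter probe set. A dimmer probe set of Pigp read -0.0006 (SE 0.053) in log2 change, and r between them over the arrays was 0.31. The sign for Pigp, and with it the count above and below 0, therefore depended on the probe set used. The positions that these probe sets match were not tested. The lowest limma adjusted p among these 12 neighbours was 0.922. The 5 mice of one group lay wholly outside the range of the other for 0 of the 12.

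**Figure D3:**
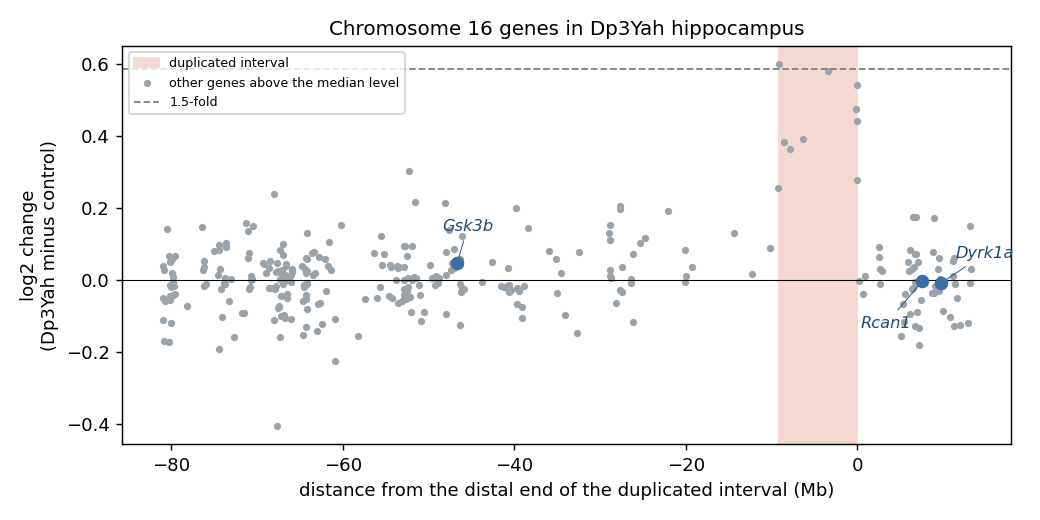
Genes of chromosome 16 above the median level are plotted by the distance of their midpoint from the distal end of the duplicated interval in Mb (x axis) against their log2 change, Dp3Yah minus control (y axis). Points in the shaded interval lie above 0, and Rcan1 (-0.0037) and Dyrk1a (-0.0089), on the distal side, sit near the line at 0, as does Gsk3b (0.05) on the far proximal side.

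A further 94 genes of the same pathways were measured outside these 10, and limma called 0 of them (lowest adjusted p = 0.922). Their log2 changes were above 0 for 47 and below 0 for 47, with a median of -0.0012. An unadjusted p under 0.05 was found for 4 (4.26%, against 5.08% of all genes), Lin52 and Rbbp4 with higher and Vegfa and Hipk4 with lower means in Dp3Yah. FCROS put 4 in its tails (4.26%, against 4.59%), Lin52, Vegfa, Hipk4 and Slc5a3. These shares were near the background. The 95% interval lay wholly within the range of 1/1.5 to 1.5-fold for 91 of the 94, the exceptions being Nr4a1, Egr2 and Clic6.

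Of the 8 other DYRK and HIPK kinases and partners, 3 log2 changes were above 0 and 5 below (median -0.03). Hipk4, a kinase of the same superfamily, read 5.54, 5.39, 5.73, 5.56 and 5.58 in Dp3Yah mice and 5.60, 5.87, 5.63, 5.75 and 5.70 in controls. Of the Dp3Yah mice, 4 lay below every control, a log2 change of -0.15 (SE 0.067, unadjusted p = 0.0421, limma adjusted p = 0.922). Dcaf7, an adaptor protein that binds DYRK1A, read 0.06 and Dyrk3 -0.07 in log2 change. Hipk4 and Dyrk3 lay below the median level of all genes.

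Among the 9 other calcineurin subunits, calmodulins and partners, 8 log2 changes were above 0 (88.9%, against 46.8% of all genes) and 1 below, with a median of 0.03. Ppp3r2, among those above 0, lay below the median level of all genes (mean 4.01 in Dp3Yah and 3.98 in controls). The genes were measured in the same mice, so the count is not of independent values. The largest log2 change was that of Ppp3cc, the third catalytic subunit. It read 8.33, 8.48, 8.52, 8.32 and 8.38 in Dp3Yah mice and 8.32, 8.42, 8.36, 8.06 and 8.20 in controls. Of the Dp3Yah mice, 2 lay above every control, and the log2 change of 0.14 (SE 0.068, unadjusted p = 0.0680, limma adjusted p = 0.922) did not pass. Cabin1, an inhibitor of calcineurin, read 0.06 and Calm2, a calmodulin gene, 0.03 (0.07 by a dimmer probe set). The 12 other NFAT factors and genes of NFAT traffic had 7 log2 changes above 0 and 5 below (median 0.02). Homer2, a synaptic scaffold that competes with calcineurin for NFAT, read 0.11, and 0.04 by a dimmer probe set. Nfat5, the NFAT family member that does not depend on calcineurin, read 0.08 and Xpo1, the nuclear export receptor, 0.07.

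Of 13 calcineurin substrates, 5 log2 changes were above 0 and 8 below (median -0.04), and 0 were called. Crtc2, a coactivator of CREB that calcineurin dephosphorylates, read 7.59, 7.38, 7.61, 7.60 and 7.62 in Dp3Yah mice and 7.67, 7.68, 7.62, 7.67 and 7.62 in controls. All 5 Dp3Yah values lay below the controls, though the highest Dp3Yah and the lowest control value were equal when rounded. Over all genes, 0.913% had groups that did not overlap in either direction. Dp3Yah replicate 2 (7.38) lay apart from the other Dp3Yah mice (7.59 to 7.62). The log2 change of Crtc2 was -0.09 (SE 0.049, unadjusted p = 0.0775, limma adjusted p = 0.922). Tfeb, a regulator of lysosomal genes, read -0.07. The 14 DYRK1A substrates had 8 changes above 0 and 6 below (median 0.03), among them Synj1, a phosphatase of synaptic vesicle recycling that is a substrate of both enzymes, at 0.08, and the transcription factor Creb1 at -0.08.

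DYRK1A phosphorylates LIN52, a step in the assembly of the DREAM complex, which holds cell cycle genes silent. Lin52 read 8.08, 8.32, 8.28, 8.10 and 8.20 in Dp3Yah mice and 8.18, 8.13, 8.01, 8.05 and 7.81 in controls. Of the Dp3Yah mice, 3 lay above every control, and the log2 change was 0.16 (SE 0.071, unadjusted p = 0.0467, limma adjusted p = 0.922). Rbbp4, a histone binding subunit of the complex, read 0.10 (SE 0.043, unadjusted p = 0.0456, limma adjusted p = 0.922) and Lin9 -0.09. The level of Lin9 was below the median of all genes. Over the 11 DREAM genes, 6 log2 changes were above 0 and 5 below (median 0.04).

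The 10 genes listed as targets of calcineurin and NFAT had 3 log2 changes above 0 and 7 below, with a median of -0.09, and 0 were called. Vegfa, the vascular endothelial growth factor, read 7.57, 7.50, 7.77, 7.68 and 7.52 in Dp3Yah mice and 7.83, 7.92, 7.74, 7.89 and 7.74 in controls. Here 4 Dp3Yah mice lay below every control, and only Dp3Yah replicate 3 reached the control range. The log2 change was -0.22 (SE 0.059, a fold of 0.862 with an interval of 0.788 to 0.942), with an unadjusted p of 0.00322 that did not survive the adjustment over all genes (limma adjusted p = 0.922), and its f of 0.0042 was past the FCROS tail. Bdnf, the brain-derived neurotrophic factor, read 6.43, 6.37, 6.53, 6.38 and 6.21 in Dp3Yah mice and 6.67, 6.45, 6.47, 6.57 and 6.44 in controls. Again 4 Dp3Yah mice lay below every control, with a log2 change of -0.14 (SE 0.063, unadjusted p = 0.0514, limma adjusted p = 0.922). Egr3, an activity-regulated transcription factor, read -0.17 (SE 0.126), with an SD of 0.319 in Dp3Yah against 0.119 in controls (n = 5 each). The mean of 12 immediate early genes, which mark recent neuronal activity and of which 2 are also in the target list, ran from 6.96 to 8.20 in Dp3Yah mice and from 7.46 to 7.84 in controls. The part of that spread in the values of the target genes was not tested. In the GSK3 pathway, 4 of 10 log2 changes were above 0 and 6 below (median -0.02), with 0.14 for Frat1, a GSK3 inhibitor, -0.06 for Axin1, the scaffold that holds GSK3 on β-catenin, and -0.05 for Gys1, glycogen synthase.

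Mice of one genotype can also be used to ask which of the 10 genes vary together. After the mean of each group was removed, Pearson r was computed for the 45 pairs over the 10 mice, with an exact permutation within groups (14400 orders, two-sided) and Benjamini-Hochberg adjustment over the 45 pairs. The calcineurin subunits Ppp3cb and Ppp3r1 varied together (r = 0.931, exact permutation p = 0.000556, adjusted p = 0.025, and rho = 0.879, exact permutation p = 0.0025, adjusted p = 0.0729). It was the only pair with an adjusted p under 0.05 by r, and by rho there were 0. The relation held within each group (r = 0.924 in Dp3Yah and 0.946 in controls) and without the 2 mice farthest out (r = 0.949). Of the 9967 other genes above the median level, 4 were at least as alike to Ppp3cb as Ppp3r1 was, and 3 were at least as alike to Ppp3r1 as Ppp3cb was.

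With 1 mouse left out, r for Ppp3cb and Ppp3r1 ran from 0.919 to 0.951, but the adjusted p passed only without Dp3Yah replicate 2 (0.0469) or 3 (0.0234). It was 0.0781 without Dp3Yah replicate 1, 0.0573 without replicate 4 and 0.0625 without replicate 5. Among controls it was 0.0547 without replicate 1, 0.0625 without replicate 2 and 0.109 without replicate 3, 4 or 5.

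Ppp3ca stood close to both other subunits. Its r with Ppp3cb was 0.856 (exact permutation p = 0.00313, adjusted p = 0.0625, rho = 0.842, exact permutation p = 0.00424), and 0.765 without the 2 mice farthest out. Its r with Ppp3r1 was 0.792 (exact permutation p = 0.00514, adjusted p = 0.0625, rho = 0.830, exact permutation p = 0.00486), and 0.699 without the 2 mice farthest out. Neither pair passed the adjustment, except Ppp3ca and Ppp3r1 without Dp3Yah replicate 3 (r = 0.914, adjusted p = 0.0234). Dyrk1b varied against Ppp3cb (r = -0.765, exact permutation p = 0.0201, adjusted p = 0.181, rho = -0.830, exact permutation p = 0.00806, and r = -0.895 without the 2 mice farthest out), a relation that did not pass the adjustment either.

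Among the regulators, Rcan1 and Rcan2 had r = 0.780 (exact permutation p = 0.00556, adjusted p = 0.0625, rho = 0.758, exact permutation p = 0.0219). Dp3Yah replicate 2 and control replicate 3 were low in both genes, and without these 2 mice r was 0.332 (exact permutation p = 0.313). They were the farthest out in Rcan1, so leaving both out also narrows its range. Within groups r was 0.834 in Dp3Yah and 0.817 in controls, and with 1 mouse left out it ran from 0.600 to 0.865. Much of the relation thus depended on these 2 mice together. Dyrk1a and Rcan1, the 2 genes of the Hsa21-homologous region, had r = 0.685 (exact permutation p = 0.0551, adjusted p = 0.276, rho = 0.539, exact permutation p = 0.132), and 0.385 without the 2 mice farthest out. None of the other pairs among Dyrk1a and the Rcan genes passed the adjustment. Without the 2 mice farthest out, r fell from 0.565 to 0.0039 for Rcan1 and Rcan3, from 0.665 to -0.295 for Rcan2 and Rcan3, from 0.517 to 0.110 for Dyrk1a and Rcan3 and from 0.597 to 0.372 for Dyrk1a and Rcan2. For Dyrk1a and Rcan1 r was 0.824 within Dp3Yah and 0.255 within controls, and the difference between them was not tested.

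**Figure D4:**
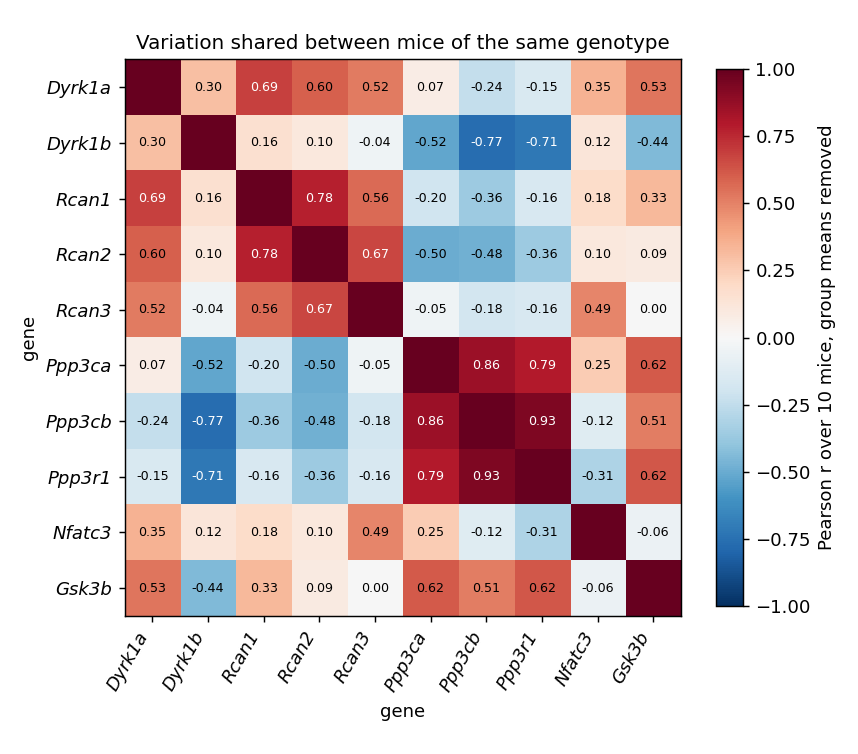
The heat map gives Pearson r (colour scale from -1 to 1) between each pair of the 10 genes over 10 mice, group means removed. The 3 calcineurin subunits form a red block (0.79 to 0.93), the row of Dyrk1b is blue against it (-0.52 to -0.77), and Dyrk1a and the 3 Rcan genes are red among themselves (0.52 to 0.78), as is Gsk3b with the subunits (0.51 to 0.62) and with Dyrk1a (0.53). Of all these pairs only Ppp3cb and Ppp3r1 passed the adjustment.

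**Figure D5:**
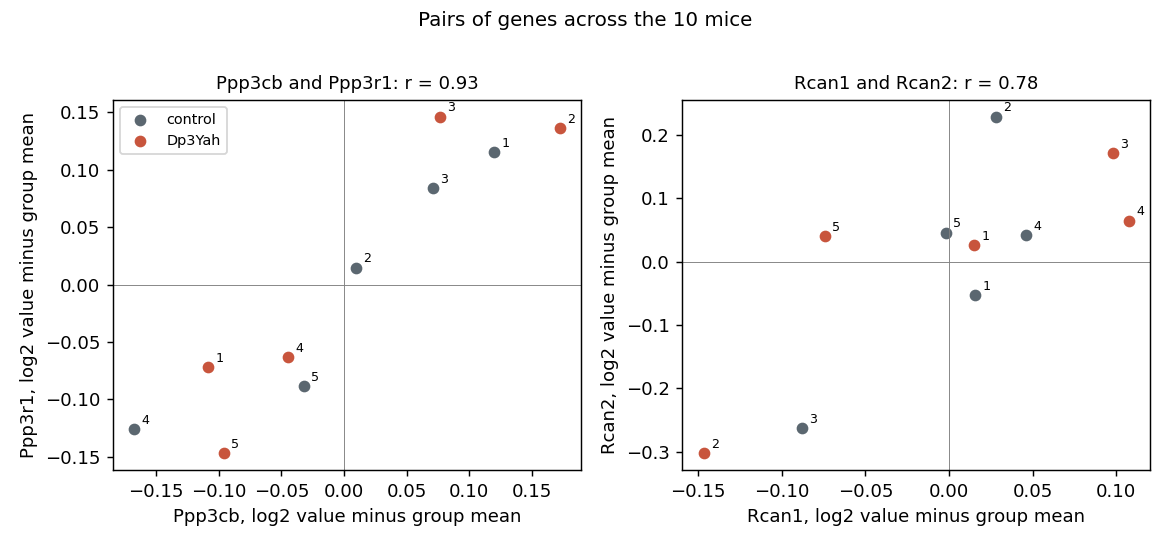
Each point is 1 mouse, numbered by replicate, with its log2 value minus its group mean for 2 genes. For Ppp3cb and Ppp3r1 (left, r = 0.93) control and Dp3Yah mice spread along one line, whereas for Rcan1 and Rcan2 (right, r = 0.78) Dp3Yah replicate 2 and control replicate 3 lie apart at the lower left.

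The 5 genes whose values were most like those of Dyrk1a among the 9969 genes above the median level, with group means removed, were Cadm4 (r = 0.969), Fam3c (0.966), Xpr1 (0.955), Tecpr2 (0.953) and Uap1 (0.932). For Rcan1 they were Eef1a2 (0.970), Rnf217 (0.964), Mier3 (0.949), Ppm1k (0.949) and Adap1 (0.945). These are the extremes of many correlations over the same 10 mice and are given as a description. Rcan1 itself was exceeded by 936 genes in likeness to Dyrk1a, and Dyrk1a by 1044 genes in likeness to Rcan1.

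Marker genes of the cell types of the hippocampus also varied between mice, and limma called 0 genes of any of the marker lists. The mean of 8 pyramidal cell markers ran from 9.01 to 9.36 in Dp3Yah mice and from 8.97 to 9.20 in controls, with Dp3Yah replicate 2 the highest. The mean of 8 dentate granule cell markers ran from 7.58 to 7.82 in Dp3Yah mice and from 7.69 to 7.90 in controls. Of these 8 markers, 3 log2 changes were above 0 and 5 below (median -0.16). Lower means in Dp3Yah at an unadjusted p under 0.05 were found for 3 (37.5%, against 5.08% of all genes in either direction). Past FCROS in either direction were 4 (50%, against 4.59%). Of these, Calb1 was in the upper tail (f = 0.985, log2 change 0.14) and the others were in the lower tail. C1ql2, a synaptic protein of granule cells named here after its values were seen, lay below every control in all 5 Dp3Yah mice (log2 change -0.24, SE 0.052, unadjusted p = 0.000461, limma adjusted p = 0.708). Groups that did not overlap were found for 0.913% of all genes. The part of the dentate markers in the lower means of Vegfa and Bdnf was not tested. The mean of 7 microglia markers ran from 7.71 to 7.91 in Dp3Yah mice and from 7.61 to 7.69 in controls, and was the only one of the 9 lists whose groups did not overlap. All 7 microglia markers had log2 changes above 0, 3 of them at an unadjusted p under 0.05 (42.9%, against 5.08% of all genes). All 7 astrocyte markers were above 0 and all 5 endothelial markers below 0 in log2 change, with 0 at an unadjusted p under 0.05 in either list. Over all genes, 46.8% of log2 changes were above 0. Markers of one cell type are measured in the same mice, so the counts within a list are not independent.

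Over the 90 relations between the 10 genes and the means of 9 marker lists, 0 passed an adjusted p of 0.05 and 6 had an unadjusted p under 0.05. Ppp3ca followed the pyramidal markers (r = 0.813, exact permutation p = 0.00319, adjusted p = 0.231, rho = 0.855, exact permutation p = 0.00431, and r = 0.883 without the 2 mice farthest out), and without Dp3Yah replicate 1 this relation passed (r = 0.860, adjusted p = 0.0313). Rcan2 ran against them (r = -0.799, exact permutation p = 0.0101, adjusted p = 0.233, rho = -0.624, exact permutation p = 0.0794, and r = -0.675 without the 2 mice farthest out). Ppp3r1 ran against the mean of 6 oligodendrocyte markers (r = -0.847, exact permutation p = 0.00514, adjusted p = 0.231, rho = -0.830, exact permutation p = 0.00806, and r = -0.852 without the 2 mice farthest out). The part of these markers in the likeness of the calcineurin subunits was not tested.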

How the data were processed

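Affymetrix Mouse Gene 1.0 ST arrays measured the total RNA, 1 array per mouse. The deposited values are log2 expression per probe set, which the authors obtained by RMA (background correction, quantile normalisation and summary of probes). The submitters' processing notes name RMA, limma and mm10, with versions not given in the sources used here. Quantile normalisation makes array distributions alike, so a change of all genes would not show.

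Of 35556 probe sets, the platform annotation gave 1 gene to 21789 and several to 1621, and 12146 were unnamed here. Symbols and coordinates came from RefSeq GRCm38.p6 (19856 of 19939 genes). The test between groups was limma 3.58.1 (R 4.3.3), two-sided, with lmFit, eBayes, no covariates and Benjamini-Hochberg adjustment over 19939 genes. FCROS was rewritten (all pairs of arrays, trim 0.25, f tails of 0.025). The number of arrays limits the precision. The scripts were tested on simulated data. Named were the 10 genes, every called gene, up to 3 genes per list by unadjusted p, all listed neighbours, and the 5 genes most like Dyrk1a and Rcan1. A few others are named where a count or a range rests on them. Members and lists were chosen with earlier results of these data known. Some genes of these lists are not reported here. Alternatives were a replicate block, other probe set summaries, a filter on dim genes, other normalisations and variance models, array weights, FCROS, and leaving out each mouse.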

Additional observations from a re-analysis of the deposited data

Results flagged for a closer look

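In 5 of 114 groups of 5 mice, 1 mouse lay farther from the others than Dixon's 95% criterion allows, where chance gives about 1 in 20 groups (5.7 expected). None of the 20 groups of the 10 genes was among them. In Dp3Yah replicate 2, Dcaf7 read 10.61 on the log2 scale against 10.70 to 10.74 in the other Dp3Yah mice, Crtc2 read 7.38 against 7.59 to 7.62, and Tecpr2 read 7.84 against 8.01 to 8.07. Egr3 read 8.55 in control replicate 5 against 8.78 to 8.85 in the other controls, and Eef1a2 read 11.44 in control replicate 3 against 11.50 to 11.53.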

How the results depend on the processing

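The number of the 10 genes called was 0 under every alternative tried, FCROS included. For the 94 other pathway genes it was 0 under every limma alternative and 4 under FCROS. Over all genes, FCROS put 915 in its tails, a number largely set by the scaling of its score. The limma count over all genes, 3, was 6 with a trended and robust variance, 5 with array weights and 1 to 4 with 1 mouse left out. It was 1 without Dp3Yah replicate 4 and 1 without control replicate 3, 4 or 5. With the replicate number as a block it was 3, and the block changed no call of the 10 genes or of the pathway genes. Correlations between the deviations of same-numbered mice ran from -0.364 to 0.315, and own number was best in 2 of 5. So few values cannot decide whether the mice were paired, and the numbers were not taken as pairs. Of the log2 changes, those of Rcan3, Ppp3cb, Ppp3r1, Nfatc3 and Gsk3b kept their sign in all 18 settings, and the sign differed in 7 for Rcan1, 5 for Ppp3ca, 4 for Dyrk1a, 3 for Rcan2 and 1 for Dyrk1b. Dyrk1a ran from -0.06 (mean of its 2 probe sets) to 0.01. Pairs of the 10 genes with an adjusted p under 0.05 numbered 1, and 0 to 2 with 1 mouse left out (an alternative chosen after seeing the data), 0 without the 2 mice farthest out, and 1 both without centring and after a second quantile normalisation. Relations with marker lists numbered 0, and 0 to 1 with 1 mouse left out. The cause of these differences was not tested. With 5 arrays per group, differences smaller than the intervals given cannot be resolved.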
